A study of Mus musculus with 18 samples.

Results

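The mammary keratins are 8 genes, Krt5, Krt7, Krt8, Krt14, Krt17, Krt18, Krt19 and Krt80, taken by symbol from the 24421 genes of the count table. The list sets the keratins of luminal cells beside those of basal cells. They were followed in 4T1, a line of mouse mammary carcinoma cells, and in 4T1R1 and 4T1R2, which are 4T1 populations selected independently for resistance to 17-DMAG, which blocks the chaperone HSP90. The resistant cells are the survivors of repeated exposure, expanded without the drug, and are populations and not clones. Each population was sequenced untreated and after 1.5 µM 17-DMAG, which makes 6 groups of 3 libraries described as biological triplicates. The length of the exposure is recorded as 2 h in the account of the whole series and as 48 h in the records of single samples, so the response cannot be tied to a time. All 3 populations derive from the same line, and no other allele or agent is named in the labels.

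Keratins are the intermediate filament proteins of epithelia. A filament is built from pairs of a type I and a type II chain, so each cell needs partners of both types, and a chain without a partner is usually degraded. In the mammary gland the luminal cells that face the duct make the simple-epithelial pair Krt8 and Krt18, with Krt7 and Krt19. The basal cells around them make Krt5 and Krt14, and Krt17 is a basal keratin that is also induced in injured epithelium. Krt80 is a type II keratin of many epithelia. Of the 8, Krt5, Krt7, Krt8 and Krt80 are type II and Krt14, Krt17, Krt18 and Krt19 are type I.

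A library held between 23354461 and 55094630 counts in all. Library pairs of a shared group were compared over genes with 4 to 30 summed counts. In treated 4T1, replicates 1 and 2 differed by less than 17 other pairs (chi-square per gene 1.10, against 2.04 to 2.22). Replicates 1 and 2 may be repeat deposits of 1 library and entered as 1 sample, so n = 2 in that group and n = 3 in the others. The names of the 4T1R1 libraries form a number run apart from those of 4T1 and 4T1R2, and what sets 4T1R1 apart from another population cannot be told apart from what sets the runs apart. Every comparison of treated with untreated cells, and that of 4T1R2 with 4T1, lies within a run. A normalized count is the read count of a gene divided by the scaled size of its library, and a gene is called where the adjusted P-value over all 13507 genes tested was under 0.05. Of the 8 keratins 7 passed the filter on low counts, and Krt5 did not.

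In GRCm38 the 4 type II genes and the type I gene Krt18 lie on chromosome 15, and Krt14, Krt17 and Krt19 lie on chromosome 11. Krt8 (101996698 to 102004482, minus strand) and Krt18 (102028180 to 102032027, plus strand) are neighbours that point away from each other, 23697 bases apart with 0 annotated genes between them. The sequences directly before the first annotated base of each are shown because this pair held most of the keratin signal and its ratio is followed in the results. They come from RefSeq promoter windows of GRCm38.p6 and read 5′ to 3′ on the strand of the gene, with capitals marking CG dinucleotides.
Krt8, chr15:102004483-102004592: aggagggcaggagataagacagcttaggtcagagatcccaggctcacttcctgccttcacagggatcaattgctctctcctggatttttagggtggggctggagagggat
Krt18, chr15:102027966-102028179: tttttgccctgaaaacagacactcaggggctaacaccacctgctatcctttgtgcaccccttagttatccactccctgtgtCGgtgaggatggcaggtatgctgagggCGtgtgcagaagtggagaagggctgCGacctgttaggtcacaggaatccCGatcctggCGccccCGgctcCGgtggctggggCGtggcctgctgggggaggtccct
The 110 bases before Krt8 held 0 CG dinucleotides at 53.6% G and C, and the 214 bases before Krt18 held 8 at 60.7%. Over the 300-base RefSeq windows, which 5 of the 8 genes have (Krt5, Krt7, Krt8, Krt14 and Krt18), the heat shock element GAANNTTC had 0 matches on either strand. This motif occurs in 7.86% of the 32851 windows of all genes. The AP-1 motif TGANTCA, present in 7.81% of windows, also had 0 matches. TATAAA, in 13.6% of windows, matched only in the window of Krt8, in 2 overlapping places that begin 3 bases and 1 base before the RefSeq start and lie inside the longer first exon of the GENCODE gene. The windows of Krt7 (101412153 to 101412452) and Krt14 (100205981 to 100206280) lie wholly inside the GENCODE genes (101411043 to 101430313 and 100203162 to 100207548). The sequence before the first GENCODE base of Krt7 and Krt14 was therefore not searched.

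The basal type I keratins resemble each other closely enough for reads to match more than 1 gene, which bears on the counts of Krt14 and Krt17. The sequences below are a coding stretch of 120 bases across the end of exon 6 and the start of exon 7 of each gene on the minus strand of chromosome 11, joined over the intron. Krt16, which is not among the 8, is included because its longest exact coding run shared with Krt14 is longer than that of Krt17. That run lies outside the stretch shown. Capitals mark bases that differ from Krt14.
Krt14, chr11:100204003-100204209: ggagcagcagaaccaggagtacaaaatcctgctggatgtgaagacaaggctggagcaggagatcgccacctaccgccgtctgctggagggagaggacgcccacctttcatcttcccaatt
Krt16, chr11:100246498-100246711: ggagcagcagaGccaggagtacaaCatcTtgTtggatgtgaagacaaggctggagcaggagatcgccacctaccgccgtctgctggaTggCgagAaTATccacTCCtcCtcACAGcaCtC
Krt17, chr11:100257328-100257534: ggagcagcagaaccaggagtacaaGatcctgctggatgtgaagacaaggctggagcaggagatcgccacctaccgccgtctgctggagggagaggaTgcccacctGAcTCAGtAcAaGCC
In this stretch Krt17 differs from Krt14 at 13 bases and Krt16 differs at 20. The longest coding run that Krt14 shares exactly is 134 bases with Krt16 and 71 bases with Krt17. Of the 50-base words of the Krt14 transcript 14.4% occur in Krt16 or Krt17, and of those of Krt17 3.99% occur in other keratins. How the counting treated reads with several matches is not given in the sources used here, so the levels of Krt14 and Krt17 are uncertain to that extent. Of the Krt8 words 26.9% occur in the pseudogene Krt8-ps, which is not a row of the table, 0.72% of those of Krt18 occur elsewhere, and Krt7, Krt19 and Krt80 share none. The level of Krt8 beside other keratins is therefore uncertain in the same way. So are its order and ratio against Krt18 and every share or sum that contains it. Exons of Krt5, Krt8 and Krt80 overlap antisense genes, and whether strand was used in the counting is not given in the sources used here.

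The 4T1 cells carried a luminal-type keratin set. Per kilobase of exon, the scale on which levels of different genes can be compared, untreated 4T1 had 17037 ± 468 normalized counts of Krt18 and 11964 ± 219 of Krt8 (SD, n = 3). These were ranks 63 and 95 of the 13015 genes tested that had a length. Krt7 followed at 3552 ± 79.2 per kilobase and Krt19 at 892 ± 41.8. Krt80 stood at 313 ± 13.2, Krt14 at 83.6 ± 13.2 and Krt17 at 32.0 ± 2.56. Krt5, the usual partner of Krt14, had 2, 2 and 0 reads in the 17-DMAG-treated 4T1 libraries and 0 reads in each of the other 15. The order Krt18, Krt8, Krt7, Krt19, Krt80, Krt14, Krt17, Krt5 was the same in all 6 groups. Within a group neighbours in this order did not overlap, except Krt80 and Krt14 in untreated 4T1R2 and Krt17 and Krt5 in both untreated resistant populations. Of the summed keratin level in untreated 4T1, Krt18 made 50.3%, Krt8 35.3% and Krt14 0.247%. These shares and the order of Krt18 above Krt8 rest on how reads shared with Krt8-ps were counted. All levels per kilobase also rest on exon lengths from GENCODE, whereas the authors counted reads on the UCSC annotation. Where the exons of a gene differ between these annotations, its level, share and place in the order can shift.

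**Figure D1:**
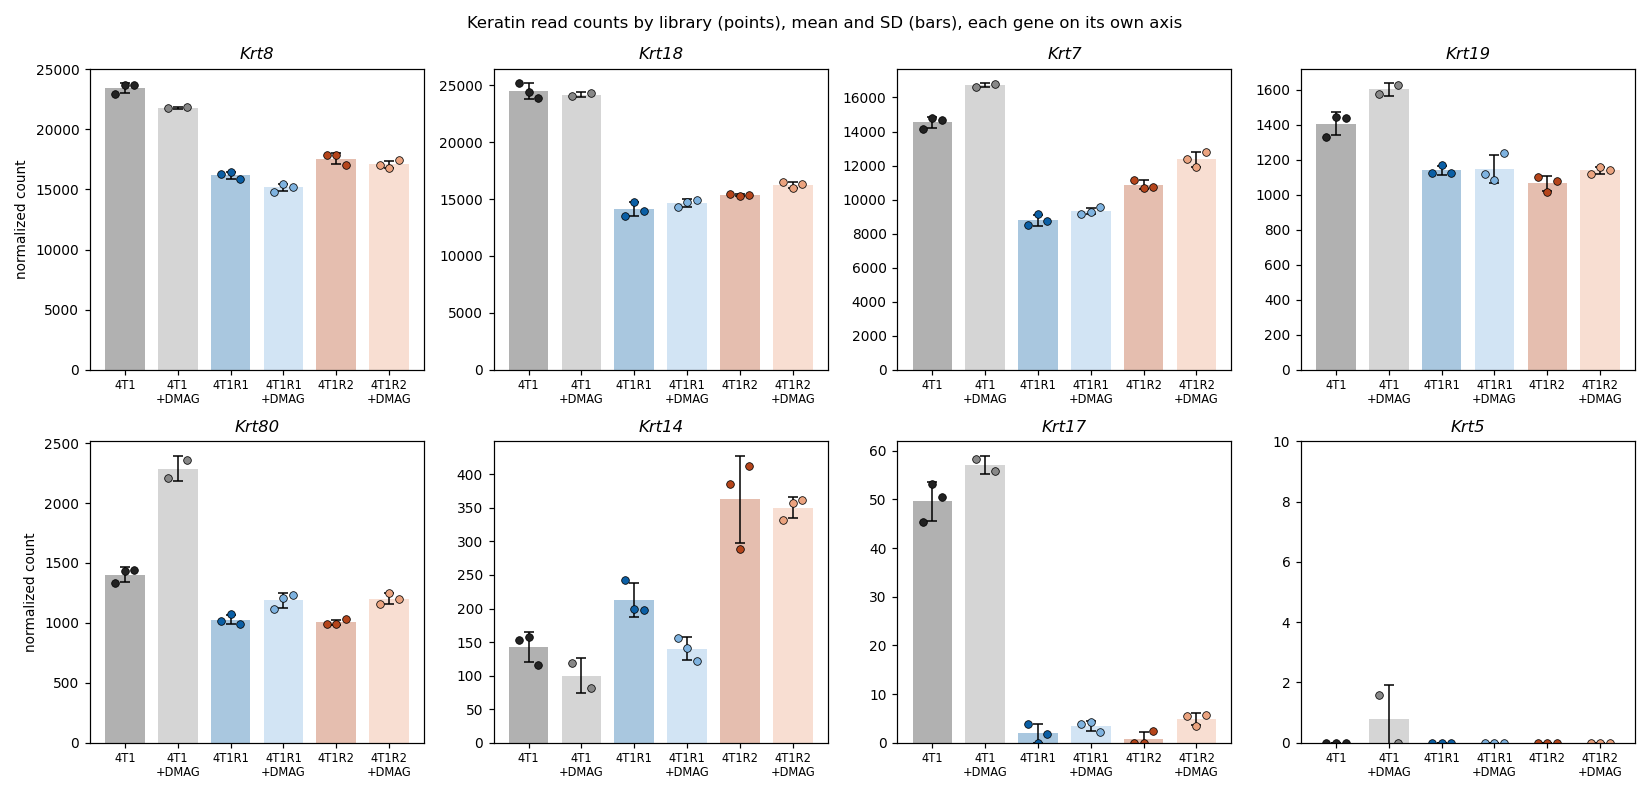
Normalized read counts of each keratin (vertical axes, each on its own scale from 0) in the 6 groups; points are libraries, bars and whiskers are the mean and SD, and +DMAG marks 17-DMAG-treated cells. Krt8, Krt18, Krt7, Krt19 and Krt80 stood lower in both untreated resistant populations than in untreated 4T1, Krt17 was near 0 there, and Krt14 was highest in 4T1R2.

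Other markers of the cell type were looked at first. The epithelial adhesion genes Epcam and Cdh1 (E-cadherin) had 1512 ± 31.2 and 11071 ± 177 normalized counts in untreated 4T1 (SD, n = 3). Vim, the intermediate filament of mesenchymal cells, stood beside the keratins at 83689 ± 933. Trp63, which encodes the transcription factor of basal cells, did not exceed 12 reads in any library. Of the defining markers of other cell types, Ptprc of leukocytes, Pecam1 of endothelium and Col1a1 of fibroblasts did not exceed 20 reads in any library. Other genes listed for these cell types did, with up to 242 reads of Cd68, 395 of Egfl7 and 1025 of Pdgfra.

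Untreated resistant cells were compared with untreated 4T1 to ask how the keratin set of the selected populations differed. Krt17 passed the filter on low counts only through the 4T1 groups, where it is high, and is described by its reads. The 6 others tested were called in each comparison, 1 higher and 5 lower, against a background of 52.7% of all genes tested in 4T1R1 and 52.4% in 4T1R2. In 4T1R1 25.2% of all genes were called higher and 27.5% lower, and in 4T1R2 25.6% and 26.9%. Krt14 was the keratin that rose. The median log2 fold change of the 6 was −0.49 in 4T1R1 and −0.42 in 4T1R2, beside 0.0075 and 0.0068 over all genes tested. Both comparisons share the untreated 4T1 libraries.

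Krt18, the type I chain of the luminal pair, had 25204, 24372 and 23872 normalized counts in the untreated 4T1 libraries. In untreated 4T1R1 it had 13552, 14762 and 13983, and in untreated 4T1R2 15419, 15269 and 15353. Every resistant library thus lay far below every 4T1 library. On the log2 scale 4T1R1 differed by −0.80 and 4T1R2 by −0.67 (standard error 0.0281 for both), and edgeR's quasi-likelihood test gave adjusted P-values of 1.57e-25 and 4.98e-23. Relative to untreated 4T1, 57.6% and 62.7% of the level remained.

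Krt8, its type II partner, had 22932, 23706 and 23640 normalized counts in untreated 4T1. It had 16250, 16430 and 15871 in untreated 4T1R1, and 17829, 17827 and 17022 in untreated 4T1R2. Again the groups did not overlap, but the fall was smaller than that of Krt18, at −0.53 (standard error 0.0262) and −0.42 (standard error 0.0262) on the log2 scale. Their levels still followed each other over the 17 libraries, with a Pearson r of 0.958 on log2 values. That r is a description over libraries of 3 populations, which share group differences.

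Krt7, a type II keratin of simple ductal epithelium, showed the largest contrast between the resistant populations among the luminal keratins. It had 14174, 14787 and 14665 normalized counts in untreated 4T1, 8490, 9139 and 8728 in 4T1R1, and 11159, 10657 and 10765 in 4T1R2. The 3 groups were therefore fully separated. The log2 fold changes were −0.73 for 4T1R1 and −0.42 for 4T1R2 (standard errors 0.0304 and 0.0303), and the difference of 0.31 (standard error 0.0306) between untreated 4T1R2 and 4T1R1 was called at 8.51e-11 (adjusted P from edgeR).

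Krt19, the smallest keratin, which lacks the usual tail domain, fell least in 4T1R1. It had 1330, 1447 and 1441 normalized counts in untreated 4T1 against 1123, 1170 and 1126 in 4T1R1 and 1104, 1019 and 1078 in 4T1R2. The groups of resistant cells lay below 4T1 without overlap. The log2 fold changes were −0.30 (standard error 0.0540) and −0.40 (standard error 0.0550), and the resistant populations were not called different from each other (log2 difference −0.093, 95% interval −0.21 to 0.020).

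Krt80 had 1335, 1430 and 1444 normalized counts in untreated 4T1, 1017, 1073 and 993 in 4T1R1, and 992, 990 and 1030 in 4T1R2. It fell by 0.45 (standard error 0.0537) and 0.48 (standard error 0.0546) on the log2 scale. Between the resistant populations the libraries overlapped and the log2 difference was −0.033 (95% interval −0.15 to 0.080).

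Krt14, the type I keratin of basal cells, went the other way. Its normalized counts were 152, 157 and 116 in untreated 4T1, 242, 199 and 198 in 4T1R1, and 386, 289 and 413 in 4T1R2. The lowest library of 4T1R2 was above the highest of 4T1R1, and that group was above 4T1. Krt14 rose by 0.59 on the log2 scale in 4T1R1 (standard error 0.142, edgeR adjusted P = 0.000557) and by 1.36 in 4T1R2 (standard error 0.136, edgeR adjusted P = 2.84e-11). In untreated 4T1R2 its level per kilobase, 214 ± 38.3, reached that of Krt80, 224 ± 4.97 (SD, n = 3 each). Krt16, with which Krt14 shares sequence, moved with it, with 18.1 ± 3.98 normalized counts in untreated 4T1, 51.2 ± 10.0 in untreated 4T1R1 and 64.5 ± 12.4 in untreated 4T1R2 (SD, n = 3 each). The part of shared reads in the difference of Krt14 was not tested. Krt14 rose without a matching level of Krt5, which had 0 reads in every resistant library.

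Krt17, the other basal type I keratin, was at 4 reads or fewer in every untreated resistant library. It had 44, 50 and 52 reads in untreated 4T1, 4, 0 and 2 in untreated 4T1R1 and 0, 0 and 2 in untreated 4T1R2. From the summed reads, with both reads of a fragment counted as 1, 4T1 was 25.5-fold above 4T1R1 (95% counting interval 8.37 to 126) and 66.5-fold above 4T1R2 (11.6 to 2661). These intervals cover counting error only. The fitted log2 fold changes were −4.59 (standard error 0.543) and −5.83 (standard error 0.660), given with no test because the filter used the same difference. Krt14, higher in these populations, and Krt17, at fewer reads, both lie in the type I cluster of chromosome 11 (100203162 to 100207548 and 100256217 to 100261029).

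**Figure D2:**
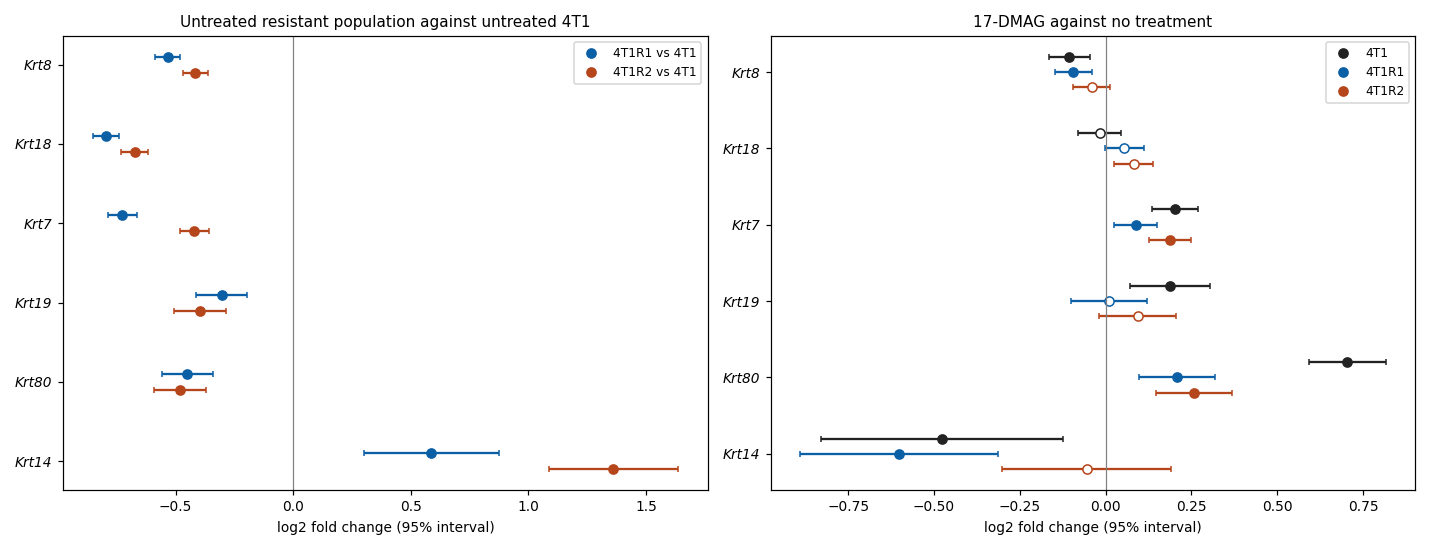
Log2 fold changes of 6 keratins with 95% intervals (horizontal axes), for untreated resistant populations against untreated 4T1 (left) and for 17-DMAG against no treatment in each population (right); filled points were called and open points were not, and Krt17 is left out because its counts were near 0 in the resistant cells. On the left, Krt8, Krt18, Krt7, Krt19 and Krt80 lie below 0 and Krt14 above it in both populations. On the right, Krt80 in 4T1 stands apart at 0.70.

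The untreated resistant populations were also compared directly, within the limit of the separate library runs. Of the 7 keratins tested 4 were called, all higher in 4T1R2 (Krt7, Krt8, Krt14 and Krt18), against 38.8% of all genes called, 19.7% higher and 19% lower. Krt8 and Krt18 differed by 0.12 each on the log2 scale (standard errors 0.0263 and 0.0282), and Krt14 by 0.77 (standard error 0.129). Krt17 was not called at 4, 0 and 2 against 0, 0 and 2 reads.

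The response to 17-DMAG was measured within each population. In 4T1, 5 of 7 keratins were called, 3 higher (Krt80, Krt7 and Krt19) and 2 lower (Krt14 and Krt8), against a background of 36.4% of all genes, 18.4% higher and 17.9% lower. In 4T1R1, 4 were called, with Krt80 and Krt7 higher and Krt14 and Krt8 lower, against 28.2% of all genes, 13.9% higher and 14.3% lower. In 4T1R2, 2 were called, Krt80 and Krt7, both higher, against 10.5% of all genes, 6.18% higher and 4.35% lower. The median log2 fold change of the 6 keratins other than Krt17 was 0.085, 0.032 and 0.087, and that of all genes tested was 0.00064, −0.0086 and −0.0019. Krt17 was called in no population and is described by its reads.

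Krt80 had the largest response in 4T1, to 2212 and 2363 normalized counts from 1335, 1430 and 1444. In 4T1R1 it went to 1119, 1208 and 1236 from 1017, 1073 and 993, and in 4T1R2 to 1157, 1249 and 1196 from 992, 990 and 1030. Treated libraries lay above the untreated ones in all 3 populations, without overlap. In 4T1 the log2 fold change was 0.70 (standard error 0.0557, edgeR adjusted P = 8.52e-14). The rises in 4T1R1 and 4T1R2 were 0.21 and 0.26 (standard errors 0.0545 and 0.0548). The responses themselves differed. As an interaction in the same edgeR fit, the log2 response of 4T1R1 minus that of 4T1 was −0.50 (standard error 0.0781, adjusted P = 6.56e-06). For 4T1R2 it was −0.45 (standard error 0.0783, adjusted P = 3.52e-05). Krt80 was the single keratin called in either interaction. Of all genes 18.2% were called for 4T1R1 (9.16% higher, 9.08% lower) and 17.8% for 4T1R2 (9.62% higher, 8.16% lower).

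Krt7 went from 14174, 14787 and 14665 to 16632 and 16817 normalized counts in 4T1, higher by 0.20 on the log2 scale (standard error 0.0332). In 4T1R2 it went to 12387, 11900 and 12812 from 11159, 10657 and 10765, a log2 fold change of 0.19 (standard error 0.0303). The rise in 4T1R1 was smaller, to 9150, 9299 and 9547 from 8490, 9139 and 8728, with a log2 fold change of 0.087 (standard error 0.0307, edgeR adjusted P = 0.0293). It was no longer called without untreated replicate 1 (0.063), untreated replicate 3 (0.082), treated replicate 2 (0.089) or treated replicate 3 (0.071). The difference from the 4T1 response was −0.11 in 4T1R1 (95% interval −0.21 to −0.023, adjusted P-value 0.0739) and −0.015 in 4T1R2 (95% interval −0.11 to 0.076).

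The luminal pair changed little. Krt8 had 21728 and 21821 normalized counts in treated 4T1 and 14823, 15481 and 15180.0 in treated 4T1R1, below every untreated library of the same population. Its log2 fold changes there were −0.11 and −0.094 (standard errors 0.0291 and 0.0263), both called, the latter not without treated replicate 1 (−0.078, edgeR adjusted P = 0.0527). In 4T1R2 treated and untreated libraries overlapped, at 17025, 16774 and 17419 after 17-DMAG (log2 fold change −0.041, 95% interval −0.094 to 0.012). Krt18 was called in no population, with 24014 and 24356 normalized counts in treated 4T1, 14261, 14752 and 14911 in treated 4T1R1 and 16457, 15932 and 16325 in treated 4T1R2. The log2 fold changes were −0.018 (95% interval −0.080 to 0.045), 0.054 (−0.0026 to 0.11) and 0.081 (0.024 to 0.14). The last had an edgeR adjusted P of 0.0560 and was called with no filter, with only the groups compared, with 18 separate libraries and with DESeq2.

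Scaling by total count alone, which moved the median of all genes by −0.11 in 4T1, changed these small responses. Krt18 was then called lower in 4T1 (−0.13) and higher in 4T1R1 (0.089) and Krt8 lower in 4T1R2 (−0.087), while Krt8 in 4T1R1 (−0.061) and Krt19 in 4T1 (0.071) were not called. That made 2 keratins higher and 3 lower in 4T1, 3 and 1 in 4T1R1, and 2 and 1 in 4T1R2. Ratios of keratins within a library do not depend on the scaling.

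Krt19 was called in 4T1, at 1576 and 1629 normalized counts after 17-DMAG, with a log2 fold change of 0.19 (standard error 0.0583, edgeR adjusted P = 0.00954). Without untreated replicate 1 it was 0.15 and without treated replicate 3 0.16, both not called. In 4T1R1 and 4T1R2 the log2 fold changes of Krt19 were 0.0097 (95% interval −0.10 to 0.12) and 0.093 (−0.019 to 0.21).

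Krt14 fell in 4T1R1, from 242, 199 and 198 to 156, 141 and 122 normalized counts, without overlap. This was a log2 fold change of −0.60 (standard error 0.142, edgeR adjusted P = 0.00118), and it leaves treated 4T1R1 at 140 ± 17.1, near the 142 ± 22.3 of untreated 4T1 (SD, n = 3 each). In 4T1 it went from 152, 157 and 116 to 118 and 81.6, where the groups overlapped. The log2 fold change of −0.48 (standard error 0.175) was called, but not without untreated replicate 1 (−0.42), untreated replicate 2 (−0.40) or treated replicate 3 (−0.26). In 4T1R2, where Krt14 was highest, it was 332, 357 and 362 after 17-DMAG, inside the untreated range of 289 to 413 (log2 fold change −0.055, 95% interval −0.30 to 0.19). Neither resistant response was called different from that of 4T1 (log2 differences −0.13, 95% interval −0.58 to 0.33, for 4T1R1 and 0.42, −0.0089 to 0.85, for 4T1R2), and those of 4T1R1 and 4T1R2 were not tested against each other.

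Krt17 had 46, 100 and 52 reads in the 3 treated 4T1 libraries, the second of which is the deepest, and its log2 fold change there was 0.20 (95% interval −0.55 to 0.95). It stayed at 4, 4 and 2 reads in treated 4T1R1. In 4T1R2 the treated libraries had 6, 4 and 6 reads against 0, 0 and 2 untreated, a ratio of 6.49 with a 95% counting interval of 0.870 to 288, and the test did not call it (edgeR adjusted P = 0.0929). Without untreated replicate 3 of 4T1R2 the fitted log2 value went from 2.51 to 5.34 and was called, which leaves a group of libraries with 0 reads.

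Because chains of the 2 types pair, the members were also compared with each other within a library, per kilobase of exon. The summed level of the 8 keratins was 33874 ± 235 in untreated 4T1, 21302 ± 604 in 4T1R1 and, for 4T1R2, 23415 ± 275 (SD, n = 3 each), which are differences of −37.1% and −30.9%. The libraries of resistant cells and 4T1 did not overlap, and for 3 libraries against 3 the smallest P-value of the exact permutation test is 0.1, which both comparisons gave. After 17-DMAG the sum was 33659 ± 265 (SD, n = 2), 21289 ± 440 and 24240 ± 413 (SD, n = 3 each). The change with treatment was thus −0.64%, −0.059% and 3.52%, and treated and untreated libraries overlapped in 4T1 and 4T1R1.

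Krt18 and Krt8 did not keep a fixed ratio. Krt18 stood at 1.50, 1.40 and 1.38 times the level of Krt8 in untreated 4T1, at 1.14, 1.22 and 1.201 in 4T1R1 and at 1.18, 1.17 and 1.23 in 4T1R2. The ratio was lower in every resistant library than in every 4T1 library, with mean differences of −16.7% and −16.4%. After 17-DMAG it was 1.51 and 1.52 in 4T1, 1.31, 1.30 and 1.34 in 4T1R1, and 1.32, 1.29 and 1.28 in 4T1R2, above the untreated libraries of the same population without exception. These were increases of 6.22%, 10.9% and 8.78%. An exact permutation test of the treatment labels within the 3 populations together, chosen after seeing the data, gave a two-sided P of 0.0005, or 0.001 adjusted over 4 such tests. The adjustment does not cover that choice. The planned exact permutation test in single populations gave P-values of 0.2 in 4T1 and 0.1 in both 4T1R1 and 4T1R2.

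Krt7 over Krt8 separated the resistant populations. It was 0.296, 0.298 and 0.297 in untreated 4T1, 0.250, 0.266 and 0.263 in 4T1R1, and 0.299, 0.286 and 0.302 in 4T1R2, so that 4T1R1 lay below both others. After 17-DMAG it was 0.366 and 0.369 in 4T1, 0.295, 0.287 and 0.301 in 4T1R1, and 0.348, 0.339 and 0.352 in 4T1R2. The increases were 23.7%, 13.4% and 17.0%, with no overlap in any population. The exact permutation test over the 3 populations, also chosen after seeing the data, gave a P of 0.00025, or 0.001 adjusted over 4 tests. The unadjusted value is the smallest that its 4000 arrangements allow. In single populations the exact permutation test gave P-values of 0.2 in 4T1 and 0.1 in both 4T1R1 and 4T1R2. This ratio pairs a keratin called higher with one called lower in 4T1 and 4T1R1. The adjustment over 4 tests does not cover the choice of the pair or of the test.

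**Figure D3:**
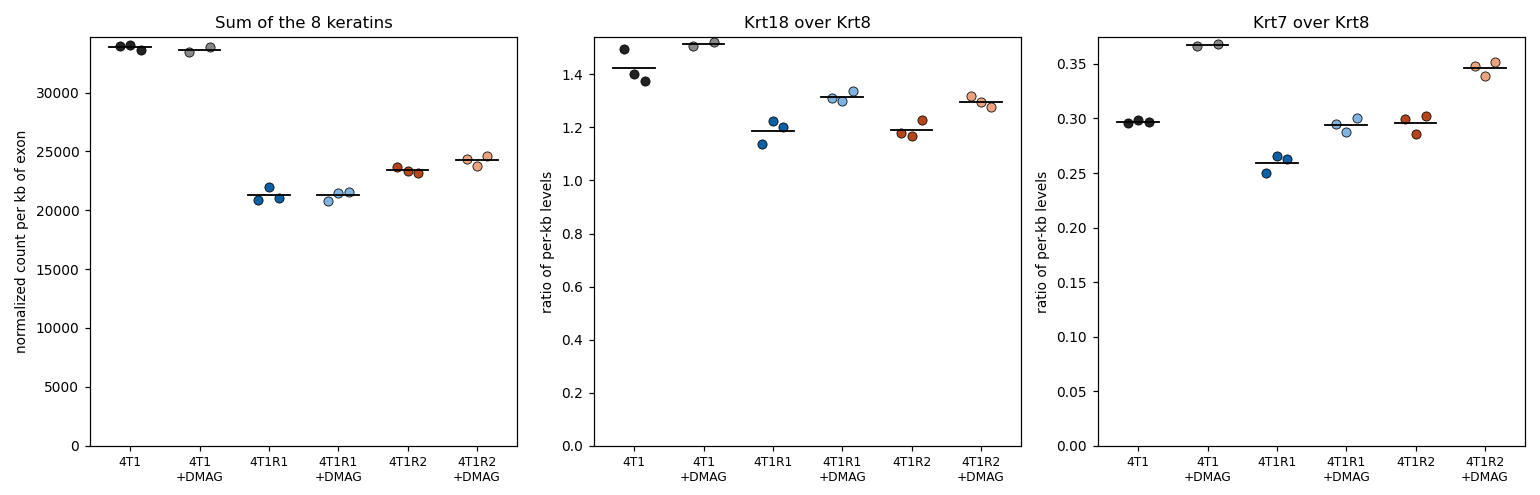
Summed level of the 8 keratins per kilobase of exon (left) and ratios of per-kilobase levels, Krt18 over Krt8 (middle) and Krt7 over Krt8 (right), from 0 on linear axes; points are libraries and lines are group means. The sum separates 4T1, near 33874, from the resistant populations and hardly differs between treated and untreated libraries, while both ratios lie higher in every treated library than in the untreated ones of the same population.

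The type I chains together stood at 1.14 ± 0.049 times the type II chains in untreated 4T1, 1.00 ± 0.028 in 4T1R1 and, for 4T1R2, 0.977 ± 0.025 (SD, n = 3 each). Per kilobase both types were thus close to equal in the resistant populations, and 4T1 had an excess of type I that its libraries shared. This takes the Krt8 counts and the GENCODE exon lengths as they are, and how reads that also match Krt8-ps were counted is not given. After 17-DMAG the ratio was 1.14 ± 0.0047 in 4T1 (SD, n = 2), 1.07 ± 0.014 in 4T1R1 and, for 4T1R2, 1.02 ± 0.016 (SD, n = 3 each). The exact permutation test within the 3 populations together, chosen after seeing the data, gave a P of 0.0235 (0.0313 adjusted over 4 tests) for the balance and of 0.311 for the sum. For the balance in single populations the exact permutation test gave 0.1 in 4T1R1 and 0.2 in 4T1R2. Treated and untreated libraries overlapped in 4T1 and 4T1R2. Both the position around 1 and the change with treatment depend on the division by length. Without it the balance was 0.663, 0.594 and 0.570 in untreated 4T1, 4T1R1 and 4T1R2 and 0.636, 0.620 and 0.579 after 17-DMAG, which is lower in 4T1. The exact permutation test within the 3 populations together then gave a P of 0.735.

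Genes that mark luminal and basal cells were set beside the keratins. Of 18 luminal marker genes 11 were tested, and 3 were higher and 4 lower in untreated 4T1R1 than in 4T1 (median log2 fold change −0.13), where 25.2% of all genes were higher and 27.5% lower. In 4T1R2 6 were higher and 2 lower (median 0.21), beside 25.6% and 26.9% of all genes. Cldn4, a tight junction claudin, fell by 2.21 and 1.73 on the log2 scale, from 943 ± 29.7 normalized counts to 204 ± 36.2 and 285 ± 25.1 (SD, n = 3 each). Elf3, an epithelial transcription factor, rose by 0.91 and 0.80, and Esr1, the estrogen receptor, fell by 0.49 and 0.51. Foxa1 rose by 0.45 and 0.89. Gata3 rose by 0.42 in 4T1R2 and was not called in 4T1R1 (−0.061). Epcam fell by 1.01 in 4T1R1, to 753 ± 20.8, and stood at 1407 ± 32.5 in 4T1R2 (log2 fold change −0.10, not called). Cdh1 had 11176 ± 278 in 4T1R1, not called, and 13394 ± 102 in 4T1R2, higher by 0.27.

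Of 18 basal marker genes 15 were tested, and 3 were higher and 3 lower in untreated 4T1R1 (median 0.28), and 5 and 3 in 4T1R2 (median 0.21). Of all genes 25.2% were higher and 27.5% lower in 4T1R1, and 25.6% and 26.9% in 4T1R2. Lama3 and Lamb3, chains of the basement membrane protein laminin-332, rose by 0.69 and 1.00 in 4T1R1 and by 1.42 and 1.14 in 4T1R2. Itgb4, the integrin chain that binds this laminin in hemidesmosomes, fell by 0.83 and 0.75, and its partner Itga6 by 0.45 and 0.46. Mylk rose by 0.78 and 0.45, and Nrg1 fell by 0.24 and 0.66. Krt14 was thus higher beside a basal list with called genes in both directions.

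Desmosomes and plakins anchor keratin filaments at cell contacts. Of 17 such genes 15 were tested, with 5 higher and 4 lower in 4T1R1 (median 0.049) and 8 higher and 4 lower in 4T1R2 (median 0.19), beside 52.7% and 52.4% of all genes called in either direction. Pkp1, a desmosomal plakophilin, rose from 216 ± 23.02 to 763 ± 10.2 normalized counts in 4T1R2 (SD, n = 3 each; 1.82 on the log2 scale) and fell by 0.38 in 4T1R1. Dsp, encoding desmoplakin, which ties keratins to the desmosome, rose by 0.20 and 0.69. Evpl, encoding envoplakin, rose by 1.25 in 4T1R1 and 0.36 in 4T1R2, and Perp, a desmosomal membrane protein, fell by 0.70 and 0.27. Dsg2 rose by 0.64 and 0.29, and Macf1 fell by 0.20 and 0.50.

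Of 15 other intermediate filament genes 8 were tested, with 0 higher and 4 lower in 4T1R1 (median −0.17) and 1 higher and 3 lower in 4T1R2 (median −0.12), against 52.7% and 52.4% of all genes called. Vim fell by 0.31 and 0.52 on the log2 scale, to 67710 ± 1655 and 58340 ± 1176 normalized counts (SD, n = 3 each). Lmnb1, encoding the nuclear lamin B1, fell by 0.50 and 0.62, and Nes, encoding nestin, by 0.36 and 0.42. Both the luminal keratins and vimentin were therefore lower in the resistant populations.

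**Figure D4:**
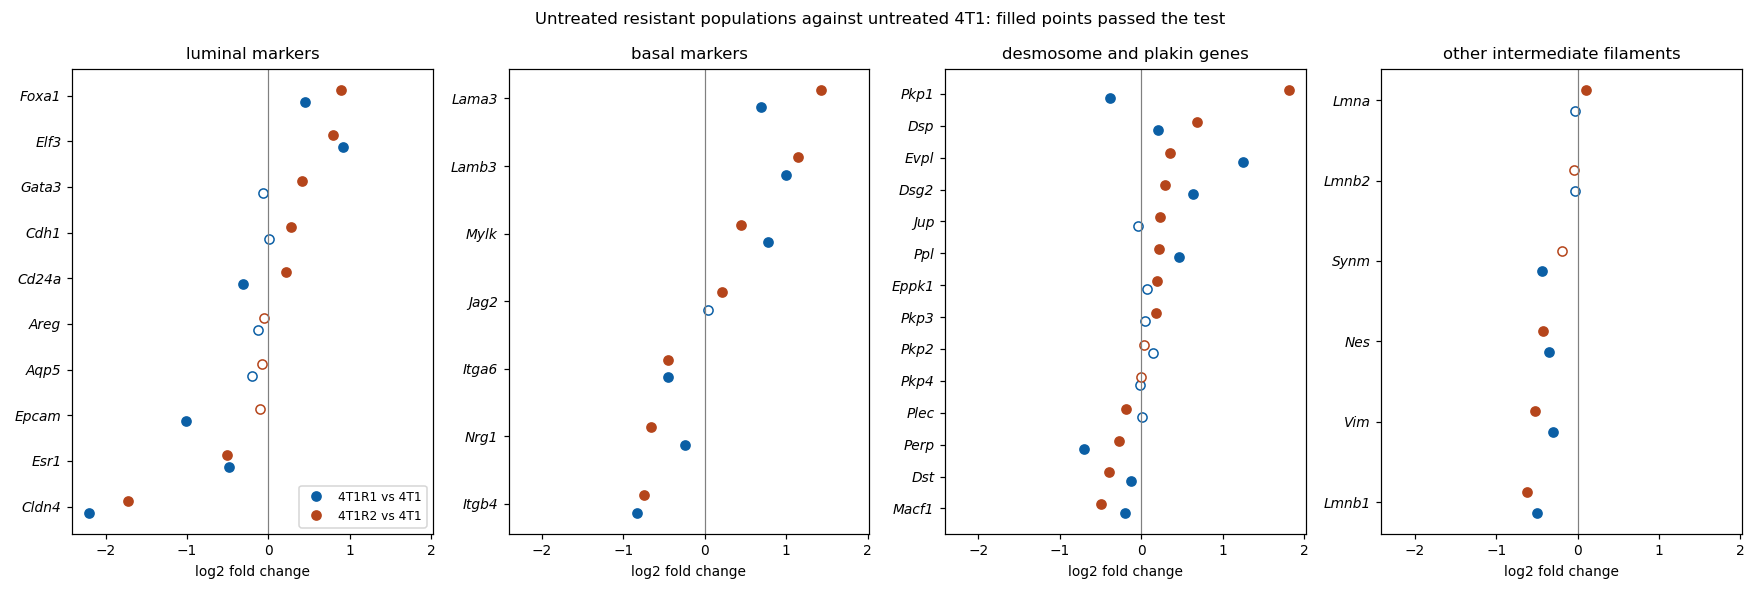
Log2 fold changes (horizontal axes) of luminal markers, basal markers, desmosome and plakin genes and other intermediate filament genes in untreated 4T1R1 (blue) and 4T1R2 (orange) against untreated 4T1, for genes that reach a group mean of 100 normalized counts; filled points were called. Cldn4 lies at −2.21 and −1.73, Lama3 and Lamb3 lie above 0, and Pkp1 is lower in 4T1R1 and higher in 4T1R2.

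After 17-DMAG 36.4% of all genes were called in 4T1, 28.2% in 4T1R1 and 10.5% in 4T1R2, and the list counts that follow stand beside these shares. The luminal list had 2 higher and 5 lower of 11 in 4T1 (median −0.11), 1 and 5 in 4T1R1 (median −0.085), and 0 and 1 in 4T1R2 (median −0.046). Cldn4 fell by 1.39 in 4T1 and 0.80 in 4T1R1, and Areg, encoding the growth factor amphiregulin, by 0.98 and 0.30. The 2 called higher in 4T1 were Foxa1 (0.58) and Elf3 (0.51), and Elf3 was called lower in 4T1R1 (−0.39). Epcam was called in no population. The basal list had 3 higher and 1 lower of 15 in 4T1, 2 and 3 in 4T1R1, and 2 and 0 in 4T1R2, with medians of −0.26, 0.055 and 0.014. Nrg1, encoding the ligand neuregulin 1, rose by 0.64, 0.19 and 0.23. Itgb4 was called lower in 4T1 (−0.28) and 4T1R1 (−0.25). Of the desmosome and plakin genes 4 were higher and 6 lower of 15 in 4T1, 2 and 5 in 4T1R1, and 3 and 3 in 4T1R2 (medians −0.083, −0.11 and 0.013). Jup, encoding plakoglobin, fell in each population, by 0.86, 0.49 and 0.34 on the log2 scale. Macf1 rose in each, by 0.32, 0.13 and 0.11. The other intermediate filament genes had 0 higher in each population and 4, 2 and 2 lower of 8 (medians −0.25, −0.066 and −0.048), and Vim fell by 0.29, 0.16 and 0.085. Vim and Krt80 thus responded in opposite directions.

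Markers of other cell types were summed in each library. The summed level of 8 fibroblast genes, of which 4 were tested, ran from 686 to 762 normalized counts in untreated 4T1, 844 to 897 in 4T1R1 and 920 to 1046 in 4T1R2, and from 399 to 421, 715 to 784 and 799 to 910 after 17-DMAG. Most of it was Pdgfra, a growth factor receptor gene, at 708 ± 39.3, 839 ± 30.6 and 968 ± 65.3 in the untreated groups (SD, n = 3 each). The 8 immune genes, with 3 tested, summed to 144 to 207, 236 to 237 and 220 to 262 in the untreated groups, and 183 to 213, 211 to 240 and 219 to 241 after 17-DMAG. The 8 endothelial genes, with 3 tested, summed to 177 to 199, 238 to 284 and 220 to 254 untreated, and 227 to 268, 190 to 264 and 216 to 251 after 17-DMAG. These sums were higher in the untreated resistant populations than in 4T1, where Krt14 was also higher and the other keratins lower. The defining genes Ptprc, Pecam1 and Col1a1 were at 20 reads or fewer in every library, but other genes of these lists were not. Cd68 made most of the immune sum, at 146 ± 29.6, 202 ± 2.99 and 184 ± 5.44 in untreated 4T1, 4T1R1 and 4T1R2. Egfl7 made most of the endothelial sum, at 169 ± 9.95, 219 ± 23.8 and 207 ± 15.6 (SD, n = 3 each). The part of other cells in the keratin values was not tested further. In bulk RNA fewer cells of a type and less RNA per cell cannot be told apart.

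For each keratin the 3 genes with the most similar pattern were sought among 10629 other genes (10630 for Krt17), by Pearson's r of log2 normalized counts over the 17 libraries. This is a description, since the points share group differences and library depth. Krt18 was followed most closely by Cyb5b (0.990), Uaca (0.990) and Lipg (0.990), and Krt8 by Tacc3 (0.987), Tuba1a (0.985) and Prc1 (0.985). For Krt7 they were Dusp9 (0.986), Cad (0.985) and Atp2a2 (0.984), and for Krt19 Wwc2 (0.981), Pdcd6ip (0.974) and Pisd (0.965). Krt80 was followed by Ajuba (0.989), Pard6b (0.984) and Dusp5 (0.977). The basal keratins had lower values, with Prcc (0.962), Ptk2b (0.960) and Wdhd1 (0.958) for Krt14 and Ywhab (0.963), Efnb2 (0.962) and Adgrg6 (0.956) for Krt17. Both also had the lowest counts of the keratins tested, and the part of counting error in these values was not tested. Among the keratins themselves r ran from 0.655 (Krt8 and Krt80) to 0.958 over pairs without Krt14, and every pair with Krt14 was negative, from −0.322 with Krt7 to −0.742 with Krt19.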

How the data were processed

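Stranded libraries were made from the rRNA-depleted RNA of 18 cultures. The authors demultiplexed with bcl2fastq 2.20, aligned with STAR to mm10/GRCm38, counted with featureCounts (Subread 1.6.2) and deposited raw counts per gene symbol. Among counts up to 12, 65.6% to 70.8% per library were even, so a count is taken as a read and not a fragment. Replicates 1 and 2 of 17-DMAG-treated 4T1 (chi-square per gene 1.10, against 2.04 to 2.22 in 17 other pairs of a shared group) were averaged, giving 17 libraries. Counts were fitted with edgeR 4.0.16 (filterByExpr, TMM scaling, 6 group means, quasi-likelihood test, Benjamini-Hochberg over 13507 genes, threshold 0.05). The common biological coefficient of variation was 0.0376. P-values measure the spread between cultures of a population. Lengths are exon unions of GENCODE vM21, which is not the UCSC annotation on which the authors counted. Ratios were compared by two-sided exact permutation tests. From each marker list genes were named among those called with at least 100 normalized counts, plus Vim, Epcam, Cdh1 and Trp63. Some genes with changes as large as those named were left unnamed. Krt16, Itga6, Ptprc, Pecam1, Col1a1, Cd68, Egfl7, Foxa1, Gata3, Mylk, Dsg2 and Macf1 were named after their values were seen. The keratins and the lists (luminal, basal, desmosome and plakin, other intermediate filament, cornified envelope, fibroblast, immune, endothelial, other keratins) were chosen with earlier results of these data known. Samples with a shared replicate number did not deviate together (r from −0.19 to 0.18 over 45 pairs), so the numbers were not taken as pairs. Alternatives were RLE and total-count scaling, no filter, the Wald test of DESeq2 1.42.0, separate fits restricted to the groups compared, 18 separate libraries with and without a replicate block, and each library left out. The code was tested on simulated data. Python 3.11.15, scipy 1.17.1 and matplotlib 3.10.9 were used.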

Additional observations from a re-analysis of the deposited data

Results flagged for a closer look

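The response of Krt80 to 17-DMAG differed between populations by a test of the difference itself. With the 4T1 response subtracted, the log2 value was −0.4951 for 4T1R1 and −0.4453 for 4T1R2 (edgeR's interaction test, adjusted P-values 6.56e-06 and 3.52e-05), and both differences kept their direction and their call under every alternative run. Both use the same 4T1 libraries. Untreated, Krt80 was already lower in the resistant populations, and after treatment it stood at 2288 ± 106 normalized counts in 4T1 (SD, n = 2), 1188 ± 61.4 in 4T1R1 and, for 4T1R2, 1201 ± 46.4 (SD, n = 3 each). The groups are too small for a test of single outlying libraries.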

How the results depend on the processing

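Of 788 values of single keratins under the alternatives, 742 kept their direction and their side of the threshold, 19 passed it newly, 12 no longer passed, and 15 changed sign, none of them a called value. In both comparisons of untreated resistant cells with 4T1 the calls of the 6 keratins other than Krt17 held under each alternative; Krt17 entered the fit only through the 4T1 groups. Total-count scaling shifted the median of all genes by −0.11 (log2) in treated 4T1 and by 0.15 in the 4T1R1 difference of response, and it gave 3 keratins called in each difference of response in place of 1. In the 4T1R2 difference 2 were called with only the groups compared and with 18 separate libraries. Leaving out a library gave 1 to 2 in either difference (2 without untreated 4T1R1 replicate 1 or 2, treated 4T1R1 replicate 3 or untreated 4T1R2 replicate 3). In 4T1 after 17-DMAG it gave 3 to 5 in place of 5, with 3 without untreated replicate 1 or treated replicate 3. Not divided by length, the balance of type I over type II counts was 0.663, 0.594 and 0.570 in untreated 4T1, 4T1R1 and 4T1R2 and 0.636, 0.620 and 0.579 after 17-DMAG, and its mean log2 change with treatment was 0.0084 (exact permutation P = 0.735), tried after seeing the data, in place of 0.052. Values that changed sign were, with total-count scaling, the differences of response of Krt7 (0.035 in 4T1R1, 0.054 in 4T1R2) and Krt14 (0.025 in 4T1R1). With a library left out, values ranged across 0 for Krt19 (−0.047 to 0.049) in treated 4T1R1, Krt18 (−0.036 to 0.0037) in treated 4T1 and Krt14 (−0.19 to 0.045) in treated 4T1R2. So did the differences of response of Krt8 (−0.0037 to 0.028) and Krt14 (−0.34 to 0.19) in 4T1R1 and of Krt7 (−0.041 to 0.012) in 4T1R2. The replicate block, fitted to 18 libraries, changed the call of none of the 56 values, which include those of Krt17. Without Krt17 the counts of calls stayed at 6 in each untreated resistant population against 4T1 and 4 between those populations. They stayed at 5, 4 and 2 after 17-DMAG in 4T1, 4T1R1 and 4T1R2, and at 1 in each difference of response. Leaving out a 17-DMAG-treated 4T1 library leaves 1 in that group, which is then assumed to vary like the others. The cause was not tested. Depth limits Krt5 and Krt17, with at most 6 reads in each library of resistant cells.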

Other observations

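Beside the 8 keratins the table lists 44 other keratin genes, of which 18 had no read in any library and 7 were tested. In untreated 4T1R1 2 of the 7 were higher and 1 lower than in 4T1, and the same numbers held in 4T1R2, against 52.7% and 52.4% of all genes tested called in either direction. Krt10, a keratin of differentiating epidermis, was the only one of the 44 to reach a mean of 100 normalized counts in a group, at 100.4 ± 22.0 in treated 4T1 (SD, n = 2) against 83.6 ± 14.6 untreated (SD, n = 3), and it was called in no comparison. After 17-DMAG 0 were higher and 1 lower in 4T1, and 0 of the 7 were called in the resistant populations by edgeR's quasi-likelihood test, where 36.4%, 28.2% and 10.5% of all genes were called in 4T1, 4T1R1 and 4T1R2.

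Of 10 genes of the cornified envelope 9 were in the table and 2 were tested. Sbsn, encoding suprabasin of stratified epithelia, rose from 132 ± 13.99 normalized counts in untreated 4T1 to 344 ± 20.4 in 4T1R1 and, for 4T1R2, 527 ± 19.6 (SD, n = 3 each), by 1.37 and 1.99 on the log2 scale. After 17-DMAG it rose by 0.91 in 4T1 and was not called in 4T1R1 (0.027) or 4T1R2 (−0.043). Its response minus that of 4T1 was −0.88 and −0.95 (adjusted P-values 5.27e-05 and 7.92e-06, edgeR's quasi-likelihood test). Sbsn was thus higher in untreated resistant cells, like Krt14, and its response was called in 4T1 alone.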
